A study of Caenorhabditis elegans with 2 samples.

Results

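Coding promoter peaks on the X chromosome are the places on X where a tagged DMD-6 protein was recovered with chromatin close to the start of a protein-coding gene. Distances here are from a start site to the summit, the base of highest signal, with negative values upstream. A peak was counted when this distance to any annotated start of a protein-coding gene was between -500 and 100 bp and every tRNA gene was more than 200 bp away. Of the 7338 peaks of the main list, 1717 lay on X and 551 of those met the rule; they are called members here. The same rule gave 2278 peaks on the 5 autosomes.

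The worms were Caenorhabditis elegans of strain RJP5356. Its allele rp168, made by CRISPR on chromosome IV, joins dmd-6 to GFP, to the degron AID, to a TEV protease site and to the epitope tag 3xFLAG. Larvae were starved at the L1 stage after bleaching and collected whole at the L4 stage, at 48 hours, in 2 biological replicates of 1 group. All samples carried the insertion, their sex was not recorded, and every tissue contributed chromatin, so a peak cannot be placed in a cell type. Immunoprecipitation was with an antibody against GFP, although the labels also list dmd-6 as the antibody; control libraries named in the labels are not used here. Read depth is unknown, because the files used are peak lists.

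DMD-6 has a DM domain, a DNA-binding fold named after Drosophila Doublesex and worm MAB-3; proteins with it are known for roles in sexual development. In worms the number of X chromosomes relative to autosomes sets sex: hermaphrodites have a pair of X chromosomes and males have one. A dosage compensation complex, brought to X by SDC-2, lowers X transcription in hermaphrodites. X is poor in genes of the germline, and it carries all but one of the vitellogenin genes, which encode the yolk proteins that the adult hermaphrodite intestine makes.

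The sequences below reach 50 bases to either side of a member's summit, read from the RefSeq copy of WBcel235 (the assembly called ce11 in the files) and printed 5′ to 3′ on the strand of the gene. Capitals mark 4 words wherever they or their reverse complements occur. The first is TGATAA, a site of GATA factors, whose reverse complement is TTATCA. The second is CTGCGTC, a word of widely active worm promoters. The third is the E-box CACGTG, a site of bHLH factors, and the last is the repeat GAGAGAG. The first 5 are shown as examples from among the 6 strongest members. Their G and C content runs from 56.4 to 65.3%, above the median of 46.5% over the 110 strongest members, and the vit-3 window, also of a strong member, has 30.7%.
serp-1.1: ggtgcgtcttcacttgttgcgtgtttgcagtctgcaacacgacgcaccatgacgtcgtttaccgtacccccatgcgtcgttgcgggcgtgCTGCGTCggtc
puf-9: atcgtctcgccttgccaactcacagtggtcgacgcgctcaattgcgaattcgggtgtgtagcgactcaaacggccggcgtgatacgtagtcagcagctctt
hsp-3: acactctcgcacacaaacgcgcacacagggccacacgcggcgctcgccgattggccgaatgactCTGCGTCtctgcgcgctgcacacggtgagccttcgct
epn-1: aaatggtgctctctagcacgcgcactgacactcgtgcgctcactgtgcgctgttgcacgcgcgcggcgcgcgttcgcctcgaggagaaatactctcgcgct
mdl-1: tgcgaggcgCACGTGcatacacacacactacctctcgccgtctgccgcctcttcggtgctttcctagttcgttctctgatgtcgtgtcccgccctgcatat

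In the same order these windows lie on X:15841228-15841328 (plus), X:5841271-5841371 (plus), X:6092125-6092225 (minus), X:14818914-14819014 (minus) and X:6742217-6742317 (plus). None of the 5 holds a GATA word; 2 hold CTGCGTC and 1 an E-box.

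The vitellogenin windows are shown because all 5 X-linked vitellogenin genes had a member, and the other 2 because they lead the lists of intestinal and dosage compensation genes. Their G and C content runs from 30.7 to 47.5%, and a GATA word lies in 4 of the 5 vitellogenin windows.
vit-3: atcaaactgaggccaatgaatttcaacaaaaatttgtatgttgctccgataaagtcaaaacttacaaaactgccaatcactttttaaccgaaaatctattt
vit-5: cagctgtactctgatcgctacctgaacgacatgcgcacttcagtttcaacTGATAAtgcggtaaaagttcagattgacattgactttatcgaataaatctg
vit-4: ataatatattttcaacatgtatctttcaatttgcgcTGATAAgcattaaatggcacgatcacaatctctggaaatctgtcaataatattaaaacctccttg
vit-2: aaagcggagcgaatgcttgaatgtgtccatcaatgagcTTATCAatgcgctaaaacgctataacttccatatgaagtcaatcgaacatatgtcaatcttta
vit-1: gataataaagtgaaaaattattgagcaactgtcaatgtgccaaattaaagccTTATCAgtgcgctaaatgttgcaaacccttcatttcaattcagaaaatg
elt-2: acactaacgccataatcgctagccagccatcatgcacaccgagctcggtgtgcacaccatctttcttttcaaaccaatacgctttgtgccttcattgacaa
sdc-2: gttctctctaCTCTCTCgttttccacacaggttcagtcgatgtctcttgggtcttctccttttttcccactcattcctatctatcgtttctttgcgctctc

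These lie on X:3572642-3572742 (minus), X:3403295-3403395 (plus), X:3564038-3564138 (minus), X:5100896-5100996 (plus), X:7727745-7727845 (plus), X:10480731-10480831 (plus) and X:11522216-11522316 (plus).

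A larger share of X-linked genes had such a peak than of the genes of any autosome. On X, 539 of 2731 protein-coding genes did, which is 19.7% (95% exact binomial interval 18.3 to 21.3%), against 14.0% over the autosomes (2409 of 17242; interval 13.5 to 14.5%). The autosomes ranged from 13.3% on I and V to 16.7% on III (interval 15.3 to 18.2%), so the interval for X lay above that of every autosome, narrowly in the case of III. Such intervals cover the counting of genes or peaks only; with 2 samples of 1 group there is no test across samples. Coding promoters held a smaller share of all X peaks, 32.1% against 37.7 to 45.3% by autosome. X has fewer genes per Mb (154 against 209) and its promoter windows cover 11.6% of its sequence against 14.8%, and members per Mb of window numbered 269, against 171 to 221 on the autosomes. Per Mb of whole sequence the gap was small: 31.1 on X, against 23.4 on I to 30.7 on V.

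**Figure D1:**
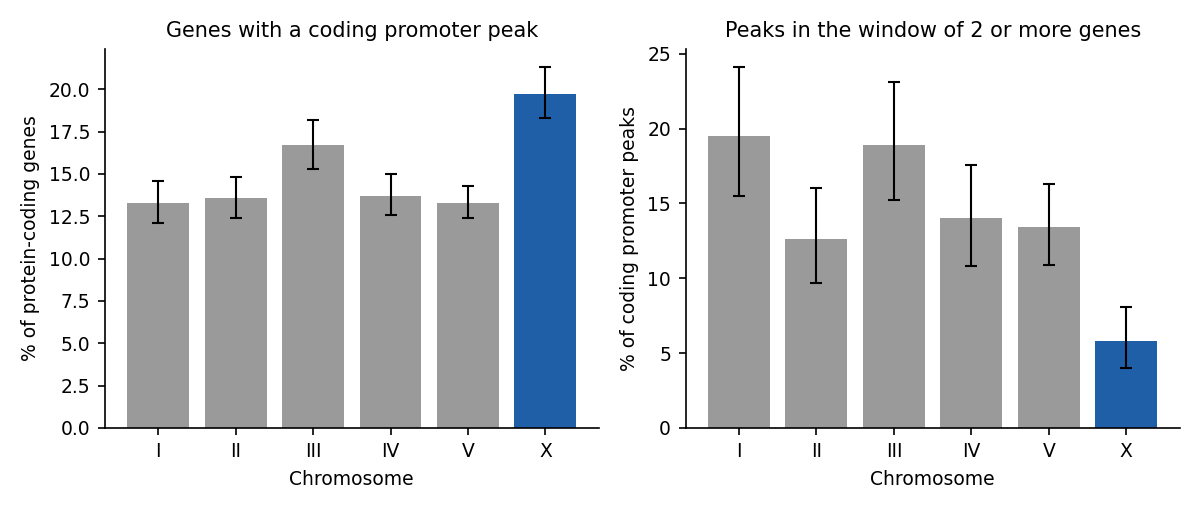
Left, the percentage of protein-coding genes of each chromosome with a coding promoter peak; right, the percentage of coding promoter peaks that lie in the windows of 2 or more coding genes. Bars are shares in the main list and lines are 95% exact binomial intervals; X (blue) is highest on the left at 19.7% and lowest on the right at 5.81%.

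Members belonged to single genes more often than autosomal peaks did. Only 32 of 551 lay in the windows of 2 or more coding genes (5.81%, interval 4.01 to 8.10%), against 15.3% over the autosomes and 12.6 to 19.5% by autosome. Promoter windows shared by neighbouring genes are also rarer on X: 2.36% of its window sequence belonged to 2 genes, against 5.07 to 7.73% by autosome, and the part this plays in the share was not tested. Of the 539 genes, 497 had 1 member, 39 had 2 and 3 had 3. The last were dgk-2, a diacylglycerol kinase, unk-1 and Y15E3A.5.

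Along the chromosome the share varied little on a broad scale. With X cut into 3 parts of equal length, a member was found at 19.4% of the coding genes of the left part, 20.4% of the middle and 19.3% of the right. In bins of 1 Mb the share ran from 10.4% of 154 genes to 29.1% of 151 genes.

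Summits lay mostly upstream of the start, which the rule largely sets because it admits only -500 to 100 bp. The median distance to the nearest coding start was -172 bp, against -145 bp on the autosomes pooled and -159 to -118.5 bp by autosome. These medians depend on the window. With 1000 bp before the start and 200 bp after it they were -216.5 bp on X and -183 bp on the autosomes. With 250 and 50 bp they were -119 and -107 bp. Upstream of the start lay 517 members (93.8%), against 90.5% of autosomal coding promoter peaks. The largest class, 158 members, was over 100 and up to 200 bp upstream. Within 100 bp upstream lay 138, and the classes farther out held 103, 70 and 48. Only 9 summits (1.63%) fell in coding exons, against 3.34% on the autosomes, and 136 (24.7%) lay inside the span of some coding gene. A window of a non-coding gene also held 57 members, 50 of them of genes annotated as ncRNA, so these summits have more than one candidate gene.

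**Figure D2:**
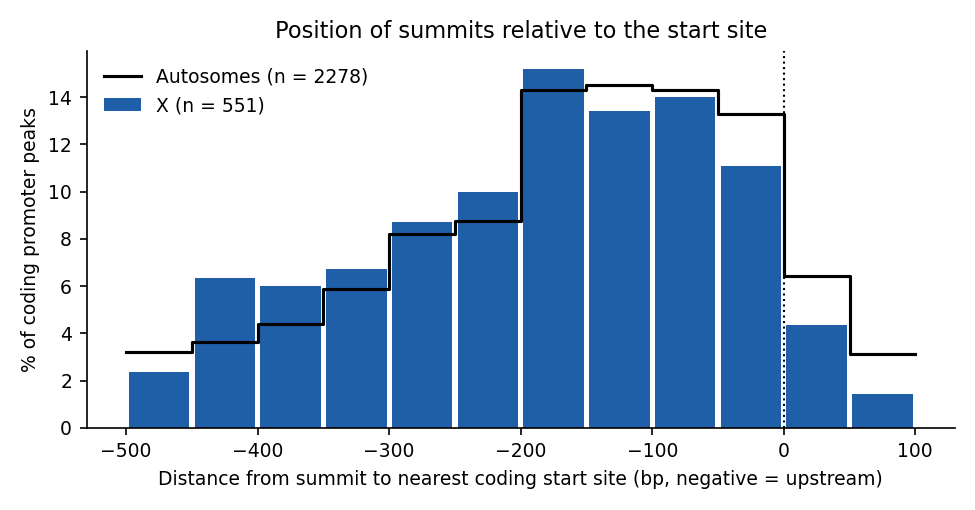
Percentage of coding promoter peaks by distance of the summit from the nearest coding start site in 50-bp bins, for X (blue bars) and the autosomes (black line); negative distances are upstream. The tallest X bar, 15.2%, is 150 to 200 bp upstream, and past the start site X bars (4.36 and 1.45%) are lower than the autosomal line (6.41 and 3.12%).

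The edges of the rule fell among peaks of ordinary signal, the authors' value for each peak, for which the sources used here give no formula. Just inside the upstream edge were pmpl-1 (-491 bp, signal 88.4) and mua-6 (-489 bp, 67.3), and just outside tag-52 (-501 bp, 133.1) and another peak of cept-1 (-504 bp, 139.2). At the downstream edge C15H9.2 and gpd-3 were inside at 100 bp (118.6 and 98), and a peak of C35C5.9 (75.3) and one of vit-2 (106 bp, 86.5) were outside. The tRNA distance removed 14 of 565 peaks. ZK1193.2 (155 bp from a tRNA gene, signal 244.9) and Y7A5A.13 (47 bp, 86) were left out, while the nearest that stayed were cyp-43A1 at 744 bp and C29F7.2 at 749 bp.

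Most members, and all of the strong ones, were found in both replicates. A thresholded peak of both replicates overlapped 332 of 551 by at least 1 bp, which is 60.3% (interval 56.0 to 64.4%), beside 58.5% of all peaks in the main list and 59.5% of autosomal coding promoter peaks. Replicate 1 alone held 143, replicate 2 alone held 17, and 59 were in neither. Median signals in these classes were 211, 99.7, 90.8 and 75.4. With members ranked by signal in 5 equal groups, from weakest to strongest the share found in both was 9.01, 28.2, 70.9, 93.6 and 100%. The main list was called on both replicates together, so its signal and these shares are not independent. Both partner summits lay within 100 bp of the member's own in 319 of 551 members (57.9%). Of the 59 members in neither thresholded list, 45 were in the ranked lists of both replicates, which hold peaks before the reproducibility threshold.

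Across the 332 members found in both, replicate signals had a Spearman rho of 0.823, beside 0.825 over 1355 autosomal peaks. This describes peaks of the same samples and comes with no p. Of the 50 strongest members in each replicate 41 were the same. Replicate summits were a median of 16 bp apart, and 292 pairs (88.0%) were within 50 bp. In 3 members the replicates differed most, with replicate 1 signals under 30: cept-1 (16.6 and 70.4), cytb-5.1 (17.6 and 75.7) and cal-5 (28.7 and 95.7). Their replicate 2 summits lay 122, 179 and 200 bp from the member's own, so the partner there was a neighbouring peak.

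**Figure D3:**
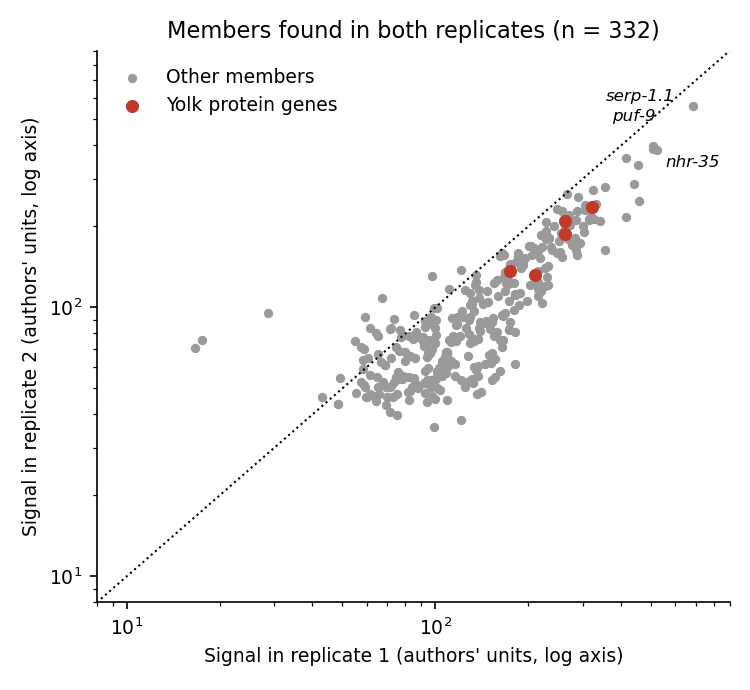
Signal in replicate 1 against replicate 2 for the 332 members that overlap a thresholded peak of both, on log axes; each list has its own scale and the dotted line marks equal values. Vitellogenin genes (red) lie in the upper part, serp-1.1 is highest in both with 684.4 and 562.7, and 3 grey points at the left are cept-1, cytb-5.1 and cal-5.

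The signals of members covered about the range of coding promoter peaks elsewhere. Their median signal was 144 (quartiles 94.8 to 237), against 142 to 155 by autosome and 148 pooled. A signal of 500 or more was reached by 25 members (4.54%), against 4.48% of autosomal peaks. Among the 100 strongest peaks of the whole list were 7 members, and among the 1000 strongest 92. For comparison, members were 551 of all 7338 peaks of that list.

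The strongest member was at serp-1.1 (X:15841115-15841433), with 1234.1 in the main list (rank 10 of 7338) and 684.4 and 562.7 in replicates 1 and 2; values below follow this order. puf-9, a Pumilio-family RNA-binding protein gene (X:5841015-5841492), had 920.1, 509.0 and 398.7. The nuclear hormone receptor gene nhr-35 had 917.0, 521.9 and 384.2. Among members these 3 had the highest main-list signals, and serp-1.1 stood apart from puf-9 and nhr-35 in every list. hsp-3, which encodes an Hsp70 chaperone of the endoplasmic reticulum (X:6091987-6092324), had 895.9, 508.6 and 386.5. epn-1, an epsin that acts in endocytosis (X:14818754-14819239), had 786.9, 413.7 and 359.3. mdl-1, a bHLH factor of the Mad family (X:6742048-6742439), had 779.5, 454.1 and 337.7. Summits of hsp-3 and mdl-1 were close to the start, at -51 and -84 bp, while that of epn-1 was at -450 bp.

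The other 9 of the strongest 15 had main signals from 552.7 to 720.2. They were nipi-3 (a Tribbles-family pseudokinase gene of epidermal immunity, 720.2), abhd-3.2 (705.9), eef-1A.2 (translation elongation factor 1A, 633.5), cest-13 (623.4), tatn-1 (tyrosine aminotransferase, 594.9), F17H10.1 (594.7), F18H3.4 (574.3), vit-3 (554.7) and tmem-184 (552.7). Of these abhd-3.2 holds 3 GATA words in its summit window, and cest-13 has its summit 7 bp past the start. The roles of the group are mixed, from protein folding and translation to yolk. At the other end were a peak of dgk-2 (3.53), one of nhr-14 (3.66) and another of dgk-2 (4.78). All 9 members with a signal under 10 were 344 bp wide, the width of 326 members, and had another summit of the main list within 500 bp.

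Gene lists by role showed where members were common and where they were rare, read beside 19.7% of all X-linked coding genes. Together the 26 lists hold 479 X-linked genes, of which 21.5% had a member, against 19.4% of the 2252 genes in no list. Counts are given with exact intervals and without a test of enrichment.

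Yolk and intestine led. All 5 X-linked vitellogenin genes had a member found in both replicates (interval 47.8 to 100%). The autosomal vitellogenin gene also had a coding promoter peak. vit-3 (X:3572518-3572839) had 554.7, 321.3 and 235.6. vit-5 had 474.6, 262.6 and 209.4, and vit-4 had 438.5, 263.8 and 187.0. vit-2 followed with 339.3, 210.6 and 131.5 and vit-1 with 309.8, 174.0 and 136.3. The 5 summits lay between -143 and -94 bp. In windows of 150 bases to either side, aligned with gaps, pairs of these promoters were identical at 52 to 60.7% of alignment columns. No unrelated promoters were aligned, so these values have no baseline. The longest identical run, 58 bp, was between vit-3 and vit-4, so a read that falls wholly within it matches both genes.

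Of 11 X-linked intestinal genes 10 had a member (90.9%, interval 58.7 to 99.8%), beside 26 of 38 on the autosomes (68.4%), and 7 of the 10 were found in both replicates. elt-2, the GATA factor that governs intestinal genes (X:10480629-10480916), had 404.8, 248.1 and 159.5, with its summit at -459 bp. The oligopeptide transporter gene pept-1 had 341.1, 219.7 and 114.7. cpr-6, a cathepsin B-like protease gene, had 252.0, 142.5 and 103.6. ifp-1, which encodes an intestinal intermediate filament protein, had 227.0, 139.3 and 88.4. These 4 were found in both replicates, with elt-2 the highest in each list. elt-4 had none. The weakest, pgp-3, had 12.7 in the main list, and its replicate 1 partner (110.2) had its summit 200 bp away.

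Lipid metabolism and the endolysosomal system came next among lists of more than 3 genes. Of 37 X-linked lipid genes 21 had a member (56.8%, interval 39.5 to 72.9%; autosomes 37.5%), and 16 of 32 did without the vitellogenin genes that the list also holds. Besides vit-3, vit-5 and vit-4, its leaders were dhs-25, a short-chain dehydrogenase gene that shares its peak with D1005.10 (531.4, 268.0 and 263.3), and pcyt-1, a gene of phosphatidylcholine synthesis (521.0, 287.5 and 227.6). Of 25 genes of the vacuolar ATPase and endolysosome 13 had one (interval 31.3 to 72.2%; autosomes 26.2%). vha-12, a subunit of the proton pump, had 403.3, 227.9 and 183.2, and the clathrin adaptor gene dpy-23 had 373.6, 211.7 and 161.9. rme-4 and rab-14, both of membrane traffic, had main signals of 280.3 and 237.6.

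Detoxification enzymes had 7 of 15 (46.7%, interval 21.3 to 73.4%; autosomes 30.8%), led by gst-42, a glutathione transferase gene that shares its peak with D1053.2 (486.6, 304.0 and 190.1), ugt-50, ugt-46 and cyp-14A2. That list was built from gene names and includes sdz-19, which is not such an enzyme; without it the count was 6 of 14 (42.9%, interval 17.7 to 71.1%, which includes 19.7%). The count of 7 fell to 3 of 15 in the conservative list, without replicate 1, and among peaks overlapping both replicates. Of the insulin, stress and lifespan genes 6 of 12 had one (interval 21.1 to 78.9%), beside 43.8% on the autosomes, and 4 of 12 without replicate 1. Leading them were hsp-3, mdl-1, the stress factor gene atf-4 (330.4, 185.8 and 155.2) and sgk-1. Among nuclear hormone receptor genes it was 10 of 27 (37.0%, interval 19.4 to 57.6%; autosomes 24.3%). After nhr-35 came nhr-1 (418.5, 253.8 and 161.0), nhr-3 and nhr-32. bHLH and bZIP factors had 5 of 13 (38.5%, interval 13.9 to 68.4%, which includes 19.7%), beside the same 38.5% on the autosomes. Highest of the 5 were mdl-1, atf-4, atf-6 (300.9, 172.5 and 126.7) and cebp-1.

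Of 6 X-linked genes that set the X signal or carry out dosage compensation, 2 had a member (33.3%, interval 4.33 to 77.7%, which includes 19.7%). sdc-2 (X:11522207-11522293), which starts assembly of the complex on X, had 200.4 in the main list and was found in both replicates, with 99.5 in replicate 2 and a slightly higher value in replicate 1. sdc-1 had 96 and was found in replicate 1 (77.0) but not in replicate 2. Without replicate 1 the count was 1 of 6, and without replicate 2, in the list of replicate 1 alone, it was 3 of 6. In the main list xol-1, the switch gene of male fate, and the X signal elements sex-1, fox-1 and ceh-39 had none.

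Intervals of the developmental lists, and of the GTPase and small lists named with them, all included the 19.7% of all X-linked coding genes. The heterochronic genes, which time larval stages, had 3 of 7 (42.9%, interval 9.9 to 81.6%), beside the same 42.9% on the autosomes. The 3 were alg-1 (an Argonaute, 168.6), lin-14 (129.2) and kin-20 (91.2), while daf-9, daf-12, hbl-1 and nhr-25 had none. Hypodermis and body size had 4 of 14 (interval 8.39 to 58.1%, autosomes 10.6%). The 4 were dpy-23, the zinc finger gene sma-9 (219.4, 97.7 and 131.3), sma-5 and ajm-1. Signalling genes had 4 of 17, with daf-3, kin-29, sma-9 and bar-1, and GTPase and G protein genes 5 of 22, led by rgs-7 (241.9). Pharynx had 1 of 4 (interval 0.631 to 80.6%, autosomes 6.45%), which was peb-1 (299.1). The lists of 3 genes or fewer were C-type lectins with 2 of 3 (66.7%, clec-265 with 333.0), ribosomal proteins with 1 of 2 (rpl-11.2, 541.2) and the germline list with 0 of 1. Their autosomal shares were 14.3, 62.5 and 5.63%. Without replicate 1 the lectins had 1 of 3.

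Lists of neuronal and cell surface genes had few members. Neuropeptide and insulin-like peptide genes had 0 of 34 and chemoreceptor genes 0 of 34 (both with an upper bound of 10.3%), beside 4.72 and 1.57% on the autosomes. Neurotransmitter receptors and ligand-gated channels had 2 of 71 (2.82%, interval 0.343 to 9.81%), del-5 (252.3) and glr-6 (155.8), the latter sharing its peak with asg-2. Of 38 genes of the neuronal list, which overlaps the receptor, potassium channel, adhesion and homeobox lists, 3 had one (7.89%, interval 1.66 to 21.4%): mec-10 (a touch receptor channel subunit, 272.4), syd-2 (155.4) and the potassium channel gene slo-2 (20.8). Cell adhesion and axon guidance had 1 of 30 (dgn-1, 74.4, in neither replicate), cuticle collagens 1 of 30 (col-184, 98.3), potassium channels 3 of 20, body wall muscle 2 of 18 and homeobox 3 of 28, or 2 of 27 without egl-13, a SOX gene. Without replicate 1 adhesion and collagens each had 0 of 30 and muscle 1 of 18. Some counts rose with a window of 1000 bp before the start and 200 bp after it. Muscle then had 4 of 18 (22.2%), beside 23.9% of all X-linked genes. Receptors had 5 of 71, homeobox 4 of 28, adhesion 2 of 30, and the peptide and chemoreceptor lists 1 of 34 each. The neuronal, collagen and potassium channel counts were unchanged. Autosomal shares were 14.5% for the neuronal list, 1.84% for receptors, 3.17% for adhesion and 8.28% for collagens. For potassium channels, muscle and homeobox they were 3.85, 9.52 and 4.23%. Intervals of the 2 peptide and chemoreceptor lists, the receptor list, adhesion and collagens lay below 19.7%. Those of the yolk, intestine, lipid and endolysosome lists lay above it, and above the share of all X-linked genes in each of the 5 alternatives run on the lists. The interval of the insulin list lay above 19.7% but not above the corresponding share in the conservative list, without replicate 1, or among peaks overlapping both replicates.

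**Figure D4:**
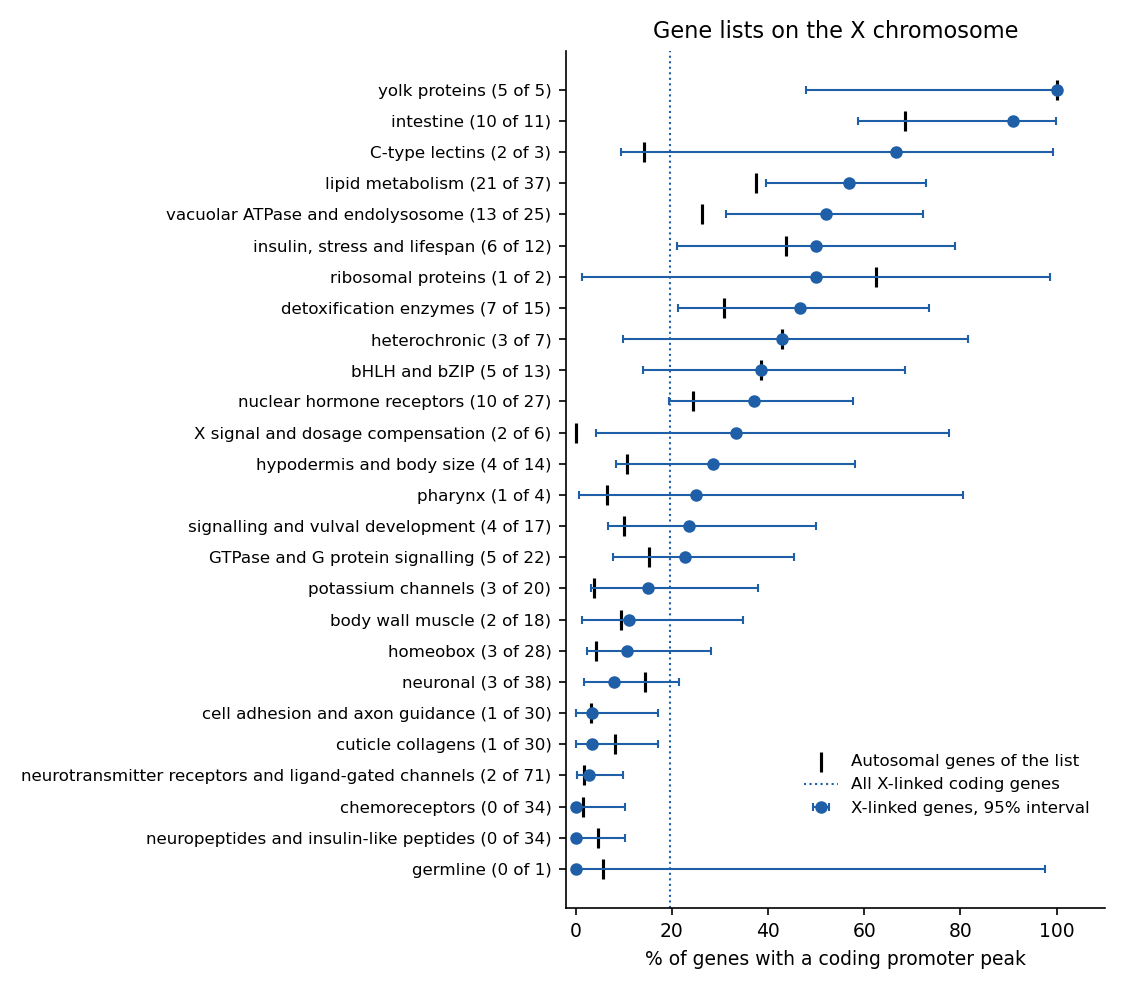
Percentage of X-linked genes of each of 26 lists that had a member, with 95% exact binomial intervals (blue); black ticks are the autosomal genes of the list and the dotted line is the 19.7% of all X-linked coding genes. Yolk (5 of 5) and intestine (10 of 11) are at the top, and neuropeptide and chemoreceptor genes, each 0 of 34, near the bottom.

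Sequence at the summits differed from that beside them. Windows of 50 bases to either side of the summit were compared with windows of that length 350 bp to the left and right and with 17573 such stretches from all X coding promoter windows. Median G and C content was 42.6% at summits, 33.7 and 34.7% in the flanks and 35.6% in the stretches, and it rose from 40.6% in the weakest of the 5 signal groups to 46.5% in the strongest.

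TGATAA, in either orientation, lay in 163 summit windows (29.6%, interval 25.8 to 33.6%). Flanks held it in 11.8 and 8.89%, the stretches in 11.1% and autosomal summits in 30.6%. Its density was 4.17 words per kb at the summit and 1.09 and 1.05 per kb at 500 bp to either side. The longer CTGATAA, which contains TGATAA, was in 11.3% of summit windows (interval 8.74 to 14.2%), 2.36 and 1.81% of flanks and 2.38% of stretches. Autosomal summits held it more often, in 14.2% (interval 12.8 to 15.7%), with overlapping intervals. With members ranked by signal in 4 equal groups, from weakest to strongest the share with TGATAA was 21.7, 33.3, 30.7 and 32.6%. Members with a GATA word were found in both replicates in 61.3% of cases, against 59.8% without. Their summits were closer to the start, at a median of -133 bp against -184 bp.

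CTGCGTC was in 6.72% of summit windows (interval 4.77 to 9.14%), 0.544 and 0.726% of flanks and 0.871% of stretches, and in 10.1% of the strongest of the 4 groups against 4.35% of the weakest, with overlapping intervals. GAGAGAG was in 7.62% against 1.27 and 1.63% of flanks and 2.32% of stretches, and the E-box CACGTG in 6.35% against 1.81, 1.63 and 1.55%. GCGCGC was in 3.45% against 0.181% of each flank, and TGACGTCA, a bZIP factor site, in 1.63% against 0.544 and 0.181%. Autosomal summits held these in 8.78, 8.25, 6.15, 5.84 and 1.1%.

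For other words the shares at summits lay closer to those beside them, or below them. ACAATGT, the core of sites described for DM-domain proteins, was in 6 windows (1.09%, interval 0.401 to 2.35%), against 2.36 and 1.09% of flanks and 2.34% of stretches. TGTTGC, a part of the site of MAB-3, was in 7.26%, against 5.26 and 5.08% of flanks and 6.11% of stretches. GTAAACA, a forkhead site, was in 2.54% (flanks 2.36 and 1.27%) and TGACTCA, a bZIP site, in 1.09% (flanks 0.907 and 2.54%). GCGCAGGG, the core of a motif of dosage compensation recruitment sites, was in 0 of 551 summit windows, with an upper bound of 0.667%, and in 0.0626% of stretches. TTTTCAG, which resembles the splice acceptor, was in 3.27% against 11.1 and 10.3% of flanks, and a run of 7 A or T bases of one kind in 9.80% against 21.2 and 21.1%.

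**Figure D5:**
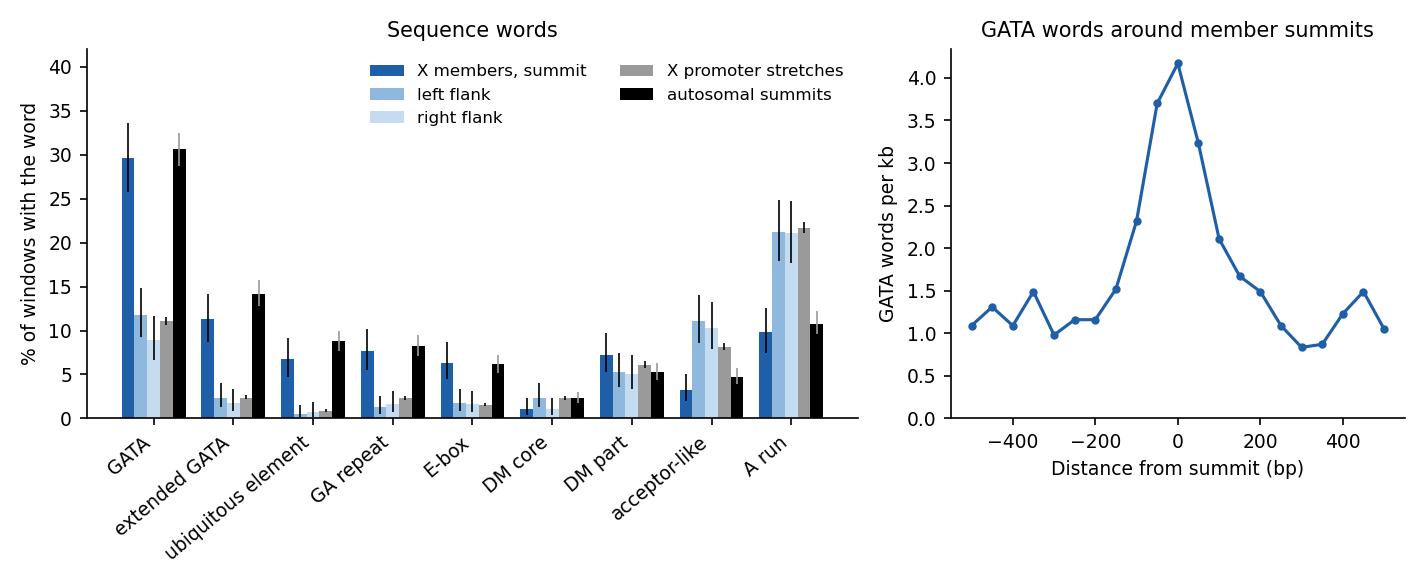
Left, percentage of windows that hold each word on either strand, for member summits, the flanks 350 bp to each side, stretches of all X coding promoter windows and autosomal summits, with 95% exact binomial intervals; right, GATA words per kb by distance from member summits. The GATA word is in 29.6% of summits and its density peaks at 4.17 per kb at the summit.

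Words of 7 bases were also picked on autosomal summits against their flanks, from 1341 considered, and then counted on X. Each picked word was less common in X members than at autosomal summits, in some cases by very little. The choice favours words with high shares at autosomal summits, so this comparison of X with the autosomes is not a fair one. CTTATCA, which contains a GATA word, was in 15.1% of members (interval 12.2 to 18.3%), 1.45% of X flanks and 2.59% of stretches, beside 17.2% of autosomal summits. AGAGACG was in 6.90% of members, 0.272% of flanks and 7.55% of autosomal summits, and AACGCGC in 3.99, 0.181 and 4.04%. Lowest in members were CGCGACG (1.09, 0.272 and 2.28%) and CGCGCGC (1.09, 0.0907 and 2.19%). A word in a window is a description of letters and does not place a factor there.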

How the data were processed

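ChIP-seq peak lists of 2 biological replicates of 1 group were used; replicate numbers are those of the labels. Per the labels and file headers they are on ce11 and came from alignments through IDR, the irreproducible discovery rate, a measure of how far peak ranks hold between replicates; no aligner or peak caller is named in the sources used here. The deposited signal is the authors' value per peak; its scale differs between lists, so it was compared within lists, and between them by rank. A further deposited column, in the ranked lists, holds −log10 values of the IDR. The main list was called on both replicates together, and 2 other series-level ranked lists were not used.

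Start sites came from Ensembl release 115, and sequence from the RefSeq copy of WBcel235. Overlap was at least 1 bp. Shares have 95% exact Clopper-Pearson intervals, which cover counting error only. The words were counted on both strands. One of the summit sequences that the rule selects is not reported here. Genes were named by rule: the 15 strongest members found in both replicates, the X signal genes, up to 4 leaders of each other list, genes with most members, and peaks at each edge; cytb-5.1, cal-5 and others outside it were chosen after their values were seen. Members, lists and words were chosen with earlier results of these data known, among them the excess of peaks on X and the leading lists, so those patterns are not independent support. Alternatives changed the window, tRNA distance, start sites, list, overlap and word window. Functions were tested on simulated data. Tools were Python 3.11.15, numpy 2.4.6, pandas 2.3.3, scipy 1.17.1, Biopython 1.88 and matplotlib 3.10.9.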

Additional observations from a re-analysis of the deposited data

How the results depend on the processing

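X stayed above the highest autosome in the share of genes with a peak, and below the lowest in the share of peaks in windows of 2 or more genes, in the main list and under all 9 alternatives to window, tRNA distance, start sites or list. Of the alternative values 40 stayed within their bounds and 15 did not. Bounds were the counting interval for shares and their ratio, and 1.5 times for numbers of peaks and genes. For the signal ratio and the median distance they were the main value plus or minus the standard deviation of the 2 single-replicate values. The number of members was 332 for peaks overlapping both replicates, and 357 to 487 when 1 replicate's own list was used. The share of X genes with a peak was 23.9% with a window of 1000 bp before the start and 200 bp after it, 13.5% with 250 and 50 bp, 17.1% with one start site per gene, 17.4% in the conservative list, 12.2% for peaks overlapping both replicates, and 13.1 to 17.9% without one replicate; the ratio of X to autosomes stayed between 1.32 and 1.43. Members overlapping both replicates were 68.1% of the conservative list and 44.5% with 50% mutual overlap. The ratio of median signals, 0.970, was 0.960 to 0.999 without one replicate. The GATA share was 17.2% in 51-bp windows, 44.8% in windows of 100 bases to either side, and 28.3 to 33.7% without one replicate.

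Among the 26 lists, 21 alternative counts moved by over 1.5 times and 109 did not. Of the alternative rank percentiles of the 15 strongest members, 23 moved beyond such replicate bounds and 22 did not. The lowest of their percentiles in any list was 92.9. No paired analysis was possible because there is only 1 group. The unknown depth limits the weak members: absence from a replicate's list is not absence of binding. The causes of the changes were not tested.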
